A study of Homo sapiens with 12 samples.

Results

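The 8 genes described here, SMAD7, SKIL, KLF10, PMEPA1, TGIF1, BHLHE40, ANGPTL4 and CTGF, are known as direct early targets of transforming growth factor beta (TGF-β). They were chosen by gene name among the 25733 genes of the deposited table, and all 8 were found, with CTGF under that symbol. Of the 8 genes, 7 passed a filter of a mean of at least 1 FPKM (fragments counted per length of exon and per depth of library) over all libraries and were tested with 12341 genes in all, and ANGPTL4 did not pass it. The study asked how ammonia bears on TGF-β signalling in colon cancer cells, and the libraries used here come from the colorectal carcinoma line HCT116, established from a human tumour, with 3 libraries in each of 4 groups. The groups were control cells, cells given TGF-β, cells given ammonium chloride (NH4Cl), and cells given both. The labels give no dose or time. The paper's methods, credited here, give vehicle for the controls, 10 mM NH4Cl for 24 h, TGF-β at 200 pM for 1 h, and for the combination 23 h in 10 mM NH4Cl and then 1 h with TGF-β at 200 pM added, in medium with fetal bovine serum. These come from its general treatment methods. Its RNA sequencing methods give 10 mM NH4Cl, and TGF-β with no dose, and no times. They call the control untreated, and the labels give it as no treatment, so whether these controls received vehicle is uncertain. Nothing in the labels or methods says whether replicates were separate cultures, so they may be technical. HCT116 is widely described as carrying frameshift mutations in the type II TGF-β receptor gene TGFBR2, which FPKM cannot show, and this was not tested.

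The reads on genes, recovered from FPKM and exon length, ranged from 14807630 to 18191998 per library with a median of 15484798. The replicate 3 libraries of all 4 groups stood apart from replicates 1 and 2: mitochondrial genes took 4.50% to 5.12% of their reads, against 2.46% to 3.18% in the other 8 libraries. BHLHE40 was higher in replicate 3 than in the mean of replicates 1 and 2 by 0.838 log2 units on average, TGIF1 by 0.498, PMEPA1 by 0.378, SMAD7 by 0.368, ANGPTL4 by 0.342 and SKIL by 0.155, each in 4 of 4 groups. KLF10 and CTGF were higher there in 2 of 4 groups only. All 13 tested genes of a hypoxia list were higher in replicate 3 in 4 of 4 groups, by a median of 1.3 log2 units, beside 31.4% of all genes tested and a median of −0.00881. The largest of these differences were those of NDRG1 at 2.18, DDIT4 at 2.09 and CA9 at 1.96 log2 units. Whether they have a part in the levels of the 8 genes was not tested. Libraries were compared within a replicate number. Deviations from group means set replicate 3 apart but tie replicate 1 of one group no closer to replicate 1 than to replicate 2 of another, so that part of the pairing rests on the labels alone. Calls of the 7 tested genes are also given without that block, with a block for replicate 3 only, and from replicates 1 and 2 alone. In bulk RNA, fewer cells expressing a gene and less RNA per cell cannot be told apart.

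TGF-β binds a pair of receptor kinases that phosphorylate SMAD2 and SMAD3, and these join SMAD4 and bind DNA within minutes to raise the transcription of a small group of genes. Many of these early targets act back on the pathway: SMAD7 and PMEPA1 hold back the receptors or the receptor SMADs, and SKIL and TGIF1 repress SMAD-bound genes in the nucleus. In normal colon epithelium TGF-β restrains growth, and colorectal cancers often lose part of the pathway.

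On the FPKM scale, which is per exon length, BHLHE40 was the most abundant of the 8 genes, from 33.0 to 106 FPKM over the 12 libraries with a median of 54.0. KLF10 came next, from 15.8 to 23.2 FPKM, and SKIL followed at 7.57 to 11.2 FPKM. SMAD7 at 5.55 to 10.3 FPKM, TGIF1 at 5.87 to 10.03 FPKM and PMEPA1 at 4.93 to 7.92 FPKM lay close together. CTGF measured 0.828 to 1.72 FPKM and ANGPTL4 0.104 to 0.625 FPKM. The ranges of BHLHE40, KLF10, CTGF and ANGPTL4 overlapped no other range among the 8 genes. SKIL was above TGIF1 in 10 of 12 libraries, TGIF1 above SMAD7 in 6 of 12, and SMAD7 above PMEPA1 in 12 of 12 although their ranges overlapped. GENCODE 29 places an antisense transcript over PMEPA1 (NKILA, 343 shared exon bases), BHLHE40 (BHLHE40-AS1, 4 bases), ANGPTL4 (RAB11B-AS1, 1 base) and CTGF (AL133346.1, 195 bases). Whether counting used strand is not stated, so reads in those bases are of uncertain origin.

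**Figure D1:**
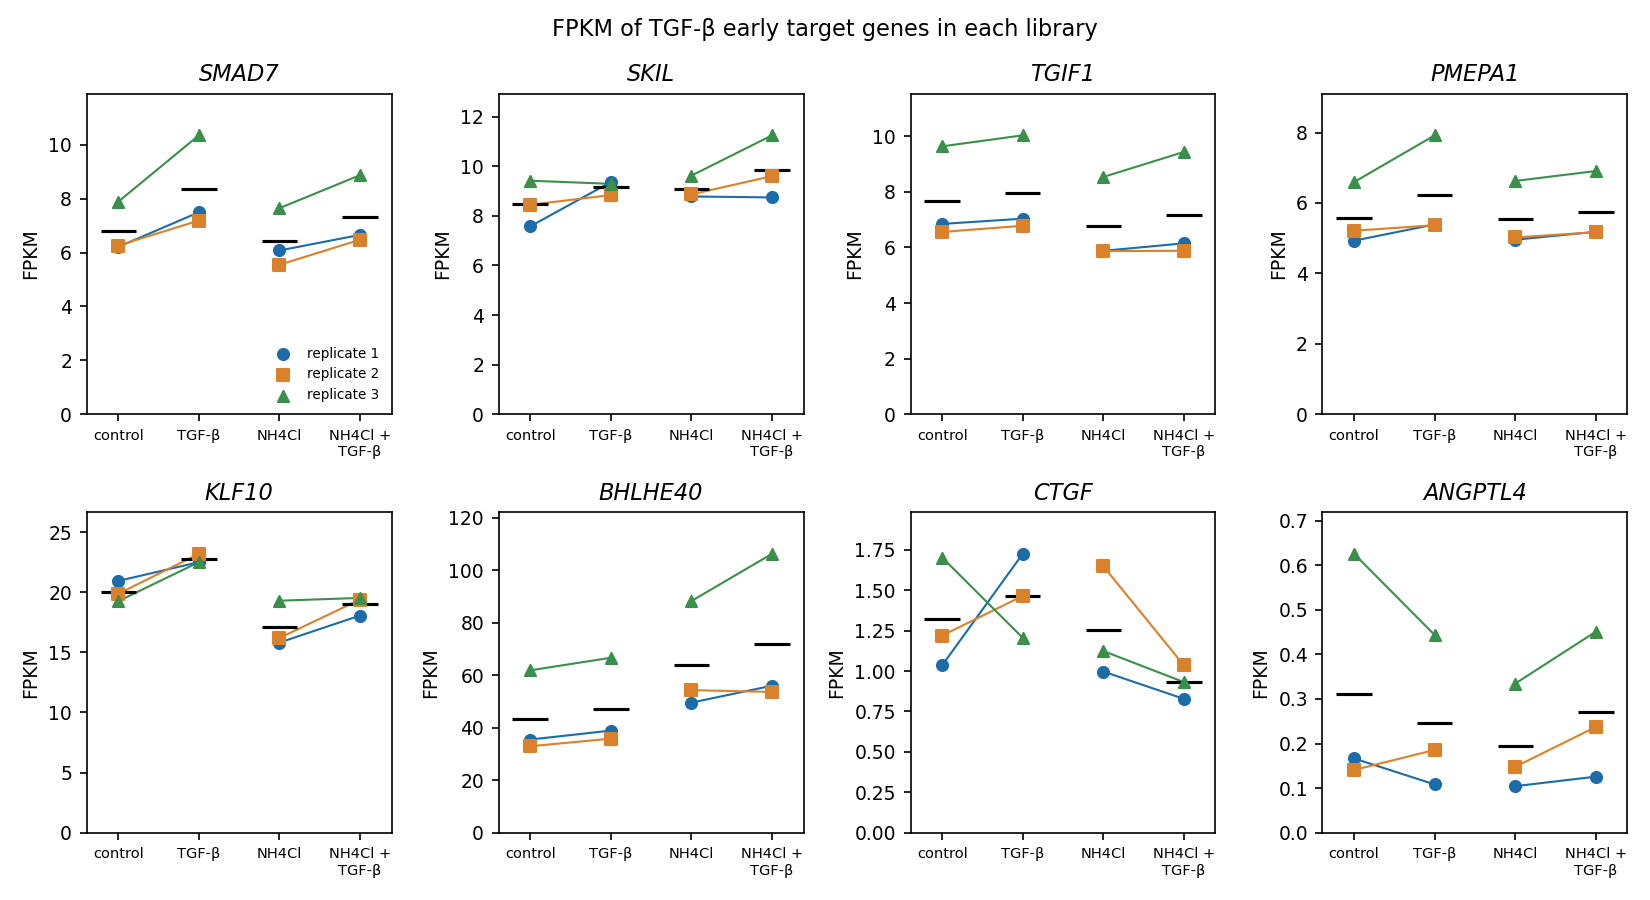
FPKM of each of the 8 genes in each of the 12 libraries, with 1 panel per gene and the 4 groups on the horizontal axis. Points are libraries, marked by replicate number, black bars are group means, and lines join the same replicate number without and with TGF-β. SMAD7 and KLF10 slope upward with TGF-β in 6 of 6 pairs, and the BHLHE40 points stand higher in NH4Cl for each replicate number.

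Promoter sequences from RefSeq on GRCh38.p14, 250 bases before to 50 after a start site counted as position 0, were matched for 7 of the 8 genes, with 18 promoters. KLF10 had no entry. Motifs were searched on both strands. The SMAD-binding letters CAGAC were found in 14 of the 18 promoters and in each of the 7 genes, and 45.3% of all 35116 promoters hold them. SMAD7, PMEPA1 and TGIF1 have 3, 4 and 7 promoters and so more chances of a match. All shares given here are per promoter, and no share per gene was counted. The palindrome GTCTAGAC was in 0 of the 18, and 0.202% of all promoters hold it. The E-box CACGTG, the form bound by BHLHE40-like factors, was in 1 of the 18, that of BHLHE40 (7.26% of all promoters). The letters ACGTG, which CACGTG contains on both strands, were in 6 of the 18, 1 for each of 6 genes (21.4%). The cyclic AMP response letters TGACGTCA were in 2 of the 18, of SKIL and PMEPA1 (1.85%), and the TEAD letters GGAATG in 3 of the 18, 2 of TGIF1 and that of CTGF, which holds them 3 times (14.0%). Of the TGIF1 promoters 2 overlap by 161 bases and share their GGAATG match and 1 CAGAC match, so each of these is counted in both. A match is a description of letters and not a bound site. Shown 5′ to 3′ on the strand of the gene, with motif matches in capitals, are the bases upstream of SKIL (chr3:170357465-170357677, plus strand) and CTGF (chr6:131951374-131951622, minus strand), which hold several of the motifs. Also shown are the surroundings of both CAGAC matches in a SMAD7 promoter (chr18:48951168-48951192 and chr18:48951079-48951103, minus strand), because SMAD7 had the smallest p among the 8 genes with TGF-β, and of the E-box of BHLHE40 (chr3:4979187-4979207, plus strand), which had the smallest p among the 8 genes with NH4Cl. The SMAD7 and BHLHE40 stretches lie in annotated exons of GENCODE 29.
SKIL: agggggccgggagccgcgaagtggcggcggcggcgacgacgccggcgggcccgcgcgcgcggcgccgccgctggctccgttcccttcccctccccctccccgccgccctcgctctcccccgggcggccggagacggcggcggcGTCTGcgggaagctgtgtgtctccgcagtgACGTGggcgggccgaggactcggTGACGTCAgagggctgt
CTGF: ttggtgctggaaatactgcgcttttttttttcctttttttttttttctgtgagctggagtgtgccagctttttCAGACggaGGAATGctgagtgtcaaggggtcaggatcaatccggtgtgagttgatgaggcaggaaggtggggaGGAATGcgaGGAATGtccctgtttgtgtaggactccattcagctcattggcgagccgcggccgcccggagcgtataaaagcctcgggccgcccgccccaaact
SMAD7, the match further upstream: cggacgccccCAGACctctgaggtt
SMAD7, the match nearer the start site: cttattttgcCAGACgtctcatgcg
BHLHE40: tccaaCACGTGagactcatgt

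The response to TGF-β was asked gene by gene, without NH4Cl and with it. SMAD7 (ENSG00000101665, GRCh38 chr18:48919853-48952052, minus strand) encodes the inhibitory SMAD that competes for the type I receptor and brings ubiquitin ligases to it. In control libraries 1, 2 and 3 SMAD7 measured 6.21, 6.26 and 7.88 FPKM, and in the TGF-β libraries 7.49, 7.19 and 10.3 FPKM. With NH4Cl alone it measured 6.07, 5.55 and 7.64 FPKM, and with both agents 6.65, 6.47 and 8.87 FPKM. Replicate 3 was the highest library of each group, the groups overlapped, and within every replicate number the library with TGF-β was above the one without it, in 6 of 6 pairs. On the log2(FPKM + 1) scale used for all differences here, the difference with TGF-β was 0.25 without NH4Cl (SE 0.0452, 95% interval 0.15 to 0.36) and 0.17 with it (SE 0.0452, 0.06 to 0.27). In the limma fit SMAD7 had the third smallest p of 12341 genes without NH4Cl and rank 79 with it, and neither passed adjustment over all genes (adjusted p = 0.948 and 0.66). Without the replicate block the adjusted p was 1 in both, and from replicates 1 and 2 alone the differences were 0.21 and 0.15. The 2 responses differed by −0.09 (−0.23 to 0.05, adjusted p = 0.992), an interval that holds 0 and also a loss of most of the response. Behind each SMAD7 value stood 456 to 758 reads, with a counting error of 3.63% to 4.68%, and that error covers counting only.

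PMEPA1 (ENSG00000124225, chr20:57648392-57711536, minus strand) encodes a membrane protein that binds SMAD2 and SMAD3 and keeps them from the receptor. It measured 4.93, 5.21 and 6.59 FPKM in control libraries and 5.39, 5.37 and 7.92 FPKM with TGF-β. With NH4Cl it measured 4.96, 5.02 and 6.62 FPKM, and with both 5.18, 5.17 and 6.91 FPKM. The groups overlapped, replicate 3 was highest in each, and all 6 same-numbered pairs were higher with TGF-β. The difference was 0.13 (0.02 to 0.23, rank 192 by p, adjusted p = 1) without NH4Cl and 0.05 (−0.06 to 0.15) with it, and the difference between them was −0.08 (−0.23 to 0.07). Replicates 1 and 2 alone gave 0.07, 0.04 and −0.03 for these.

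SKIL and TGIF1 act in the nucleus. SKIL (ENSG00000136603, chr3:170357678-170396835, plus strand) encodes SnoN, which binds SMAD complexes and recruits corepressors, and whose protein is degraded and then resynthesised after TGF-β. It measured 7.57, 8.45 and 9.42 FPKM in control libraries, 9.36, 8.84 and 9.29 FPKM with TGF-β, 8.78, 8.86 and 9.62 FPKM with NH4Cl, and 8.74, 9.60 and 11.2 FPKM with both. The groups overlapped, and 4 of 6 same-numbered pairs were higher with TGF-β, replicate 3 without NH4Cl and replicate 1 with it being the exceptions. The difference was 0.10 in both settings (−0.03 to 0.24 in both), and the difference between them was 0.00 (−0.19 to 0.19). Without replicate 3 they were 0.17 without NH4Cl (adjusted p = 1) and 0.05 with it, with a difference of −0.12 (adjusted p = 0.868).

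TGIF1 (ENSG00000177426, chr18:3411608-3459978, plus strand), a homeodomain protein that brings histone deacetylases to SMAD2, measured 6.85, 6.56 and 9.64 FPKM in control libraries and 7.03, 6.78 and 10.03 FPKM with TGF-β. With NH4Cl it measured 5.88, 5.87 and 8.53 FPKM, and with both 6.15, 5.88 and 9.43 FPKM. All 6 pairs were higher with TGF-β, by at most 0.13 log2 units, and the groups overlapped. Its differences were 0.04 (−0.05 to 0.13) and 0.06 (−0.03 to 0.15), or 0.04 and 0.03 from replicates 1 and 2 alone.

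Among the transcription factors outside the SMAD feedback is KLF10 (ENSG00000155090, chr8:102648779-102655902, minus strand), a zinc finger repressor first described as a TGF-β-inducible early gene. It measured 20.9, 19.9 and 19.3 FPKM in control libraries and 22.5, 23.2 and 22.5 FPKM with TGF-β. Every TGF-β library was above every control library, and the replicate 3 libraries did not stand out. How many of all genes tested separate in this way was not counted, so the separation is a description only. With NH4Cl it measured 15.8, 16.2 and 19.3 FPKM, and with both 18.1, 19.4 and 19.5 FPKM. These groups overlapped, since the NH4Cl library of replicate 3 was near the level of cells given both. The difference with TGF-β was 0.18 (0.03 to 0.32, rank 183 by p, adjusted p = 1) without NH4Cl and 0.15 (0.00 to 0.29, adjusted p = 0.695) with it. The difference between them was −0.03 (−0.23 to 0.18), and from replicates 1 and 2 alone it was 0.06, with the other sign.

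BHLHE40 (ENSG00000134107, chr3:4979116-4985323, plus strand), a helix-loop-helix repressor tied to the circadian clock and to hypoxia, measured 35.5, 33.0 and 61.9 FPKM in control libraries and 38.9, 35.8 and 66.7 FPKM with TGF-β. With NH4Cl it measured 49.5, 54.3 and 88.2 FPKM, and with both 56.0, 53.6 and 106 FPKM. Replicate 3 was far above replicates 1 and 2 in each group, so the groups overlapped, and 5 of 6 same-numbered pairs were higher with TGF-β. The difference with TGF-β was 0.12 (0.00 to 0.24, adjusted p = 1) without NH4Cl and 0.14 (0.02 to 0.26, adjusted p = 0.673) with it, or 0.12 and 0.08 from replicates 1 and 2 alone.

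The remaining genes encode secreted proteins and were the least abundant. CTGF (ENSG00000118523, chr6:131948176-131951373, minus strand), a matrix-associated growth factor that is also a target of YAP and TEAD, measured 1.04, 1.22 and 1.70 FPKM in control libraries and 1.72, 1.46 and 1.21 FPKM with TGF-β. With NH4Cl it measured 0.997, 1.65 and 1.12 FPKM, and with both 0.828, 1.03 and 0.932 FPKM. With TGF-β alone, replicates 1 and 2 were higher and replicate 3 was lower, and with NH4Cl present all 3 replicate numbers were lower with TGF-β. The difference was 0.09 (−0.20 to 0.39) without NH4Cl and −0.21 (−0.51 to 0.08) with it, or 0.19 and −0.43 with limma-voom. The difference between them, −0.31 (−0.72 to 0.11, adjusted p = 0.992), was the largest of the 7 genes tested and did not pass. It was −0.62 with limma-voom (adjusted p = 0.995) and −0.54 from replicates 1 and 2 alone (adjusted p = 0.822), where the difference without NH4Cl was 0.29. Only 31 to 75 reads stood behind each CTGF value.

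ANGPTL4 (ENSG00000167772, chr19:8363289-8374373, plus strand), an inhibitor of lipoprotein lipase that PPAR and hypoxia also induce, measured 0.167, 0.141 and 0.625 FPKM in control libraries and 0.108, 0.186 and 0.443 FPKM with TGF-β. With NH4Cl it measured 0.104, 0.148 and 0.335 FPKM, and with both 0.126, 0.237 and 0.451 FPKM. Replicate 3 was the highest in each group, and the groups overlapped. These values rest on 4 to 23 reads. In a fit without the filter its differences with TGF-β were −0.06 (adjusted p = 1) and 0.09 (adjusted p = 0.946), and limma-voom without the filter gave −0.28 (adjusted p = 1) and 0.42 (adjusted p = 0.98). On log2(FPKM + 1) the added 1 shrinks differences of genes as low as CTGF and ANGPTL4.

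**Figure D2:**
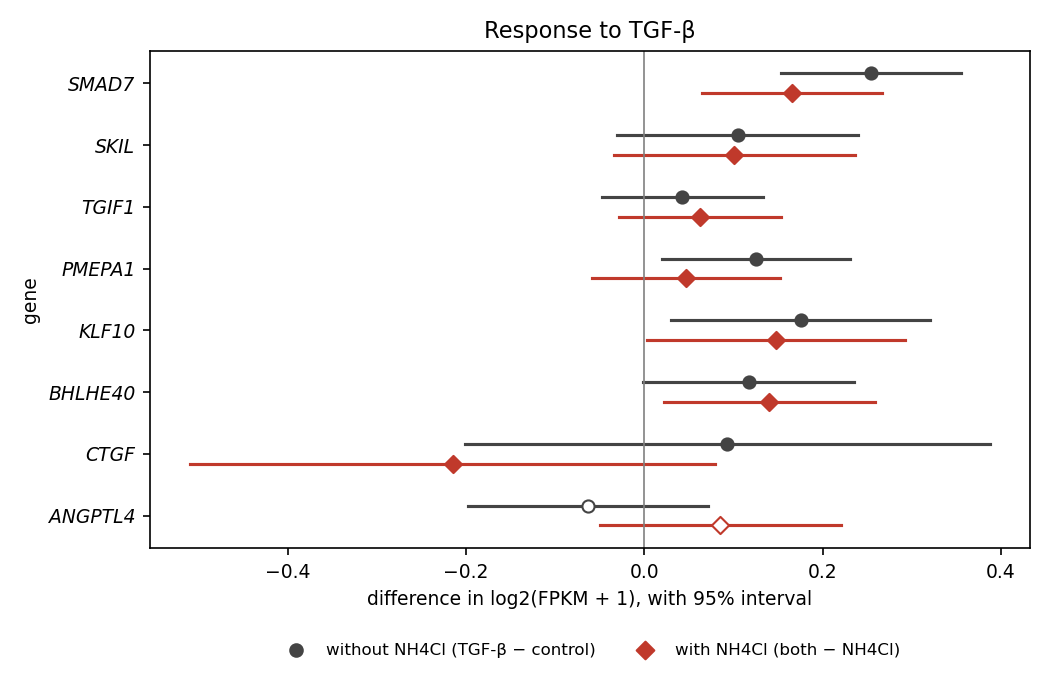
Difference in log2(FPKM + 1) with TGF-β for each of the 8 genes, without NH4Cl (grey circles) and with it (red diamonds), with 95% intervals from the limma fit over 12 libraries. Open symbols mark ANGPTL4, from the fit without the filter. The intervals of SMAD7 lie above 0 in both settings, and those of CTGF are the widest.

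Read over the 7 genes tested, limma called 0 past an adjusted p of 0.05 with TGF-β alone, where 0.0081% of all genes passed (1 gene, ID1, with 422 at an unadjusted p under 0.05). It called 0 of 7 with TGF-β in NH4Cl, against 0.0081% of all genes (again ID1, with 879 unadjusted). For the difference between the responses it called 0 of 7 and 0% of all genes, with 537 genes, 4.35%, and 0 of the 7 at an unadjusted p under 0.05. limma-voom on the recovered reads also called 0 of 7 in each, against 0.0162%, 0.0162% and 0.0081% of all genes. Without the replicate block it was 0 of 7 against 0%, 0% and 0% of all genes, with 103, 165 and 115 genes at an unadjusted p under 0.05. At an unadjusted p under 0.05 and higher with TGF-β, there were 3 of 7 (SMAD7, KLF10 and PMEPA1) beside 1.84% of all genes without NH4Cl, and 3 of 7 (SMAD7, KLF10 and BHLHE40) beside 4.42% with it. Without the block that count was 1 of 7 (KLF10; 0.389% of all genes) and 0 of 7 (0.81%). From replicates 1 and 2 alone it was 3 of 7 (SMAD7, SKIL and KLF10; 1.83%) and 2 of 7 (SMAD7 and KLF10; 5.52%). With a block for replicate 3 only it was 4 of 7 (SMAD7, KLF10, PMEPA1 and BHLHE40; 1.94%) and 3 of 7 (SMAD7, KLF10 and BHLHE40; 4.43%), and 0 of 7 and 0% of all genes passed adjustment in either setting or for the difference between them. Higher in 3 of 3 replicate numbers were 5 of 7 without NH4Cl (12.7% of all genes) and 4 of 7 with it (14.3%), and higher in 6 of 6 pairs were SMAD7, KLF10, PMEPA1 and TGIF1, 4 of 7, beside 2.24% of all genes. The median difference of the 7 genes was 0.117 without NH4Cl and 0.101 with it, with 7 and 6 above 0, while over all genes tested the medians were 0.00154 and 0.000416 and 51.2% and 50.2% were above 0.

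The remaining 24 listed TGF-β targets, of which 22 were tested, gave 1 call in each setting. ID1, an inhibitor of helix-loop-helix factors, rose by 0.65 with TGF-β alone (adjusted p = 0.0248) and by 0.62 with TGF-β in NH4Cl (adjusted p = 0.0342), from 31.9 ± 12.9 to 49.5 ± 15.0 FPKM and from 25.7 ± 10.96 to 39.4 ± 13.5 FPKM (SD, n = 3). The ID1 calls were lost without the block (0.65 and 0.62, both adjusted p = 1), with a block for replicate 3 only (adjusted p = 0.231 and 0.431), and from replicates 1 and 2 alone (0.72 and 0.68, adjusted p = 0.112 and 0.25). limma-voom kept both (0.65 and 0.62, adjusted p = 6.35e-06 and 0.000178). The median of that list was 0.0719 without NH4Cl and 0.0798 with it, with 20 and 18 of 22 above 0 and 6 of 22 at an unadjusted p under 0.05 in each, beside 3.42% and 7.12% of all genes. The largest values after ID1 were JUNB at 0.32 and RHOB at 0.26 without NH4Cl, and ID3 at 0.28 and JUNB at 0.24 with it, none of which passed. The closest relatives of the 8 genes, 12 listed and 5 tested (KLF9, KLF11, CYR61, TGIF2 and SKI), were above 0 in 5 of 5 without NH4Cl and 1 of 5 with it, with medians of 0.0875 and −0.0359. Of the 5, limma and limma-voom called 0 in either setting, and 0 had an unadjusted p under 0.05.

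NH4Cl was then compared with its absence, first without TGF-β and then with it. Both of these comparisons share libraries with the TGF-β comparisons. The BHLHE40 libraries with NH4Cl at 49.5, 54.3 and 88.2 FPKM stood above the same-numbered controls at 35.5, 33.0 and 61.9 FPKM, and with TGF-β in both groups the order was the same. The groups overlapped because replicate 3 of the control and TGF-β cells exceeded replicates 1 and 2 of the NH4Cl cells. BHLHE40 rose 1.47-fold with NH4Cl (0.56, SE 0.053, 95% interval 0.44 to 0.68, adjusted p = 0.00036) and 1.5-fold with NH4Cl in TGF-β-treated cells (0.58, 0.46 to 0.70, adjusted p = 0.000215), in 3 of 3 replicate numbers each time. For the NH4Cl comparisons the share of all genes higher in 3 of 3 was not counted. Without the block, when the distance of replicate 3 enters the error, the adjusted p of BHLHE40 was 0.643 and 0.544. From replicates 1 and 2 alone the differences were 0.59 (adjusted p = 0.00614) and 0.54 (adjusted p = 0.00649).

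TGIF1 fell by 0.16 with NH4Cl (−0.25 to −0.07, adjusted p = 0.0278) and by 0.14 with NH4Cl in TGF-β-treated cells (−0.23 to −0.05, adjusted p = 0.0375), lower in 3 of 3 replicate numbers each time. As for BHLHE40, the share of all genes with 1 direction in 3 of 3 was not counted. KLF10 was lower by 0.22 with NH4Cl without passing (adjusted p = 0.0509) and fell by 0.25 in TGF-β-treated cells (−0.39 to −0.10, adjusted p = 0.0267), where the groups did not overlap. The share of all genes without such overlap was not counted. The KLF10 values without TGF-β were split: replicates 1 and 2 were lower by 0.384 and 0.279, and replicate 3 was higher by 0.00279. From replicates 1 and 2 alone KLF10 passed in both, at −0.33 (adjusted p = 0.0147) and −0.27 (adjusted p = 0.0185), and TGIF1 in neither, at −0.16 and −0.17 (adjusted p = 0.0809 and 0.0596). SMAD7 was lower by 0.07 with NH4Cl (−0.17 to 0.03, adjusted p = 0.334) and fell by 0.16 in TGF-β-treated cells (−0.26 to −0.06, adjusted p = 0.0347). That SMAD7 passed in 1 setting and not the other is no difference between them, since the test of that difference is the interaction given above. From replicates 1 and 2 alone SMAD7 in TGF-β-treated cells was at −0.14 (adjusted p = 0.122). Without the block TGIF1 had adjusted p of 0.888 and 0.858, KLF10 of 0.263 and 0.166, and SMAD7 of 0.958 and 0.76.

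SKIL and PMEPA1 passed in neither setting, with differences of 0.09 and 0.09 for SKIL and −0.01 and −0.09 for PMEPA1. The values of replicates 1 and 2 alone were 0.13 and 0.01 for SKIL and −0.02 and −0.05 for PMEPA1. CTGF was lower by 0.04 with NH4Cl, and by 0.35 in TGF-β-treated cells (−0.64 to −0.05, adjusted p = 0.0952), where every library given both agents was below every TGF-β library and limma-voom gave −0.64 (adjusted p = 0.0502). Here too the share of all genes with groups that separate was not counted. For ANGPTL4 the fit without the filter gave −0.12 (adjusted p = 0.339) and 0.03 (adjusted p = 0.863), and limma-voom without the filter gave −0.56 (adjusted p = 0.535) and 0.14 (adjusted p = 0.916).

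**Figure D3:**
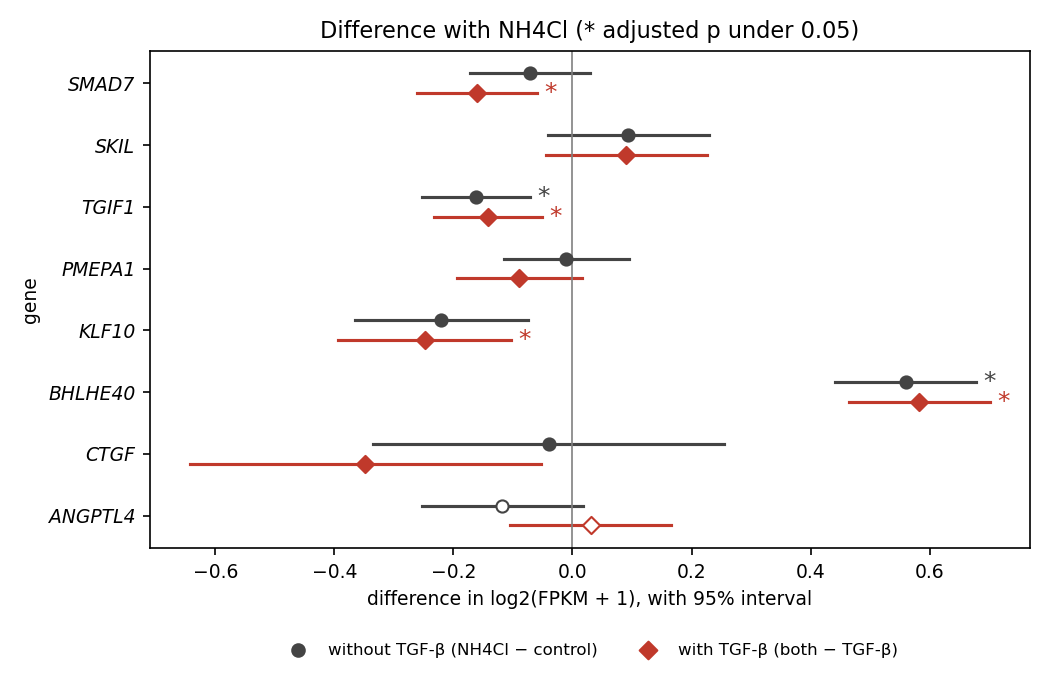
Difference in log2(FPKM + 1) with NH4Cl for each of the 8 genes, without TGF-β (grey circles) and with it (red diamonds), with 95% intervals from the limma fit over 12 libraries and an asterisk where the adjusted p was under 0.05. Open symbols mark ANGPTL4, from the fit without the filter. BHLHE40 lies at 0.56 and 0.58, and the asterisks of TGIF1, KLF10 and SMAD7 lie below 0.

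In counts, 2 of 7 genes passed with NH4Cl alone (1 higher, 1 lower), beside 13.6% of all genes tested, of which 916 rose and 758 fell. In TGF-β-treated cells 4 of 7 passed (1 higher, 3 lower), beside 18.8%, of which 1275 rose and 1047 fell. Without the block it was 0 of 7 in limma in both, beside 0.381% and 1.03% of all genes, with 1333 and 1642 genes at an unadjusted p under 0.05. limma-voom with the block called 3 of 7 (KLF10, TGIF1 and BHLHE40; 17.9% of all genes) and 4 of 7 (23.7%). With a block for replicate 3 only limma called the same 3 of 7 (14.5%) and the same 4 of 7 (19.5%). The medians of the 7 genes were −0.0399 and −0.142, with 2 of 7 above 0 each time, beside medians of 8.41e-05 and −5.71e-05 and 50.1% and 49.9% above 0 over all genes.

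The genes that carry the TGF-β signal were measured in the same libraries. TGFBR1 stood at 12.2 ± 0.871 FPKM in control cells, SMAD3 at 15.3 ± 2.35, SMAD2 at 1.59 ± 0.0261 and SPTBN1, the spectrin that the study links to SMAD3, at 19.4 ± 0.699 (SD, n = 3). FPKM is per exon length, and the annotated exons of SMAD2 hold 36366 bases, against 6844 for TGFBR1 and 9113 for SMAD3. Control libraries held 857 to 991 reads of SMAD2, 1135 to 1487 of TGFBR1 and 2111 to 2432 of SMAD3, so these FPKM do not rank the genes. SMAD4 was listed at 0.121 to 0.221 FPKM from 26 to 49 reads, under the filter. GENCODE 29 has the protein-coding AC091551.1, which the table lacks, over 967 of its 13123 exon bases on the same strand, and whether that affects its count was not tested. TGFBR2 stood at 10.2 ± 1.46 FPKM in control cells and 8.46 ± 1.30 FPKM with NH4Cl (SD, n = 3). It fell by 0.25 (adjusted p = 0.00471, or 0.599 without the block) and by 0.22 in TGF-β-treated cells (adjusted p = 0.00605, or 0.578 without it). Of 25 listed pathway genes 19 were tested: with TGF-β, limma and limma-voom called 0 in either setting (medians 0.0123 and −0.0102), with 1 and 2 at an unadjusted p under 0.05. With NH4Cl, TGFB1 (0.33) and LTBP3 (0.23) rose and TGFBR2 and BAMBI (−0.20) fell, and in TGF-β-treated cells TGFB1 (0.38) and LTBP3 (0.35) rose and TGFBR2 and ZFYVE9 (−0.26) fell. These are 21.1% of the 19 each time, beside 13.6% and 18.8% of all genes. All 4 calls in each were lost without the block, and from replicates 1 and 2 alone 4 and 2 of them were kept, TGFBR2 having adjusted p of 0.024 and 0.0521.

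Genes that share a known regulator with members of the set moved as follows with NH4Cl, and all calls named here but that of AMOTL2 in TGF-β-treated cells were lost without the block. In these 2 comparisons 13.6% and 18.8% of all genes tested passed. Of 21 YAP and TEAD targets, a list to which CTGF would belong, 18 were tested: 0 rose and 3 fell (AMOTL2 at −0.53, PTPN14 at −0.29 and MYOF at −0.19), with a median of −0.118 (3 of 18 genes, 16.7%, and 1 of the 3 kept from replicates 1 and 2 alone). In TGF-β-treated cells 1 rose (GADD45A, 0.28) and 6 fell, AMOTL2 at −0.50, PTPN14 at −0.48 and CYR61, the CTGF relative, at −0.38 among them, with a median of −0.0832 (7 of 18, 38.9%, 3 kept). Of 14 hypoxia genes, 13 tested, 2 rose (VEGFA 0.32, P4HA1 0.17) and 1 fell (LDHA −0.12), and in TGF-β-treated cells 5 rose, led by ANKRD37 at 0.51 and DDIT4 at 0.40, and 0 fell (23.1% and 38.5% of the 13, 1 and 5 kept, medians 0.116 and 0.128). Of 8 PPAR targets, 5 tested, PLIN2 and ACADVL fell in both, by 0.26 and 0.24 and by 0.30 and 0.11 (40.0% of the 5 each time, 2 and 1 kept, medians −0.0501 and −0.111). Of 14 immediate early genes, all tested, FOS (0.43), DUSP1 (0.37) and NR4A1 (0.20) rose, and 5 rose in TGF-β-treated cells, led by NR4A1 at 0.41 (21.4% and 35.7% of the 14, 2 and 3 kept, medians 0.0797 and 0.0322). Among the relatives KLF9 rose by 0.50 and 0.38, with medians of 0.0272 and −0.0868 over the 5 tested (20.0% and 40.0% of them called, 1 and 0 kept, so the KLF9 call in TGF-β-treated cells was lost from replicates 1 and 2 alone). Among the other TGF-β targets LIF (0.43), CDKN2B (0.38) and VEGFA rose and TGFBI (−0.38) and ID1 (−0.31) fell. In TGF-β-treated cells CDKN2B (0.47), LIF (0.46) and VEGFA (0.35) rose, and NEDD9 (−0.34), ID1 (−0.33), TGFBI (−0.31) and FN1 (−0.25) fell (medians −0.0477 and −0.0159). With a block for replicate 3 only, 4 and 5 of the 18 YAP and TEAD targets passed, 1 and 3 of the 13 hypoxia genes, 3 and 2 of the 5 PPAR targets, 1 and 2 of the 14 immediate early genes and 1 and 1 of the 5 relatives. Of the genes named here, P4HA1, LDHA, FOS, DUSP1 and ID1 then lost their calls with NH4Cl, and P4HA1, DDIT4, FOS, DUSP1, CYR61 and FN1 theirs in TGF-β-treated cells. With TGF-β, limma and limma-voom called 0 of the YAP and TEAD, hypoxia, PPAR and immediate early genes in either setting, and their medians lay between −0.028 and 0.0227. At an unadjusted p under 0.05 there were 2, 0, 0 and 1 genes of these lists without NH4Cl and 4, 1, 1 and 1 with it.

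**Figure D4:**
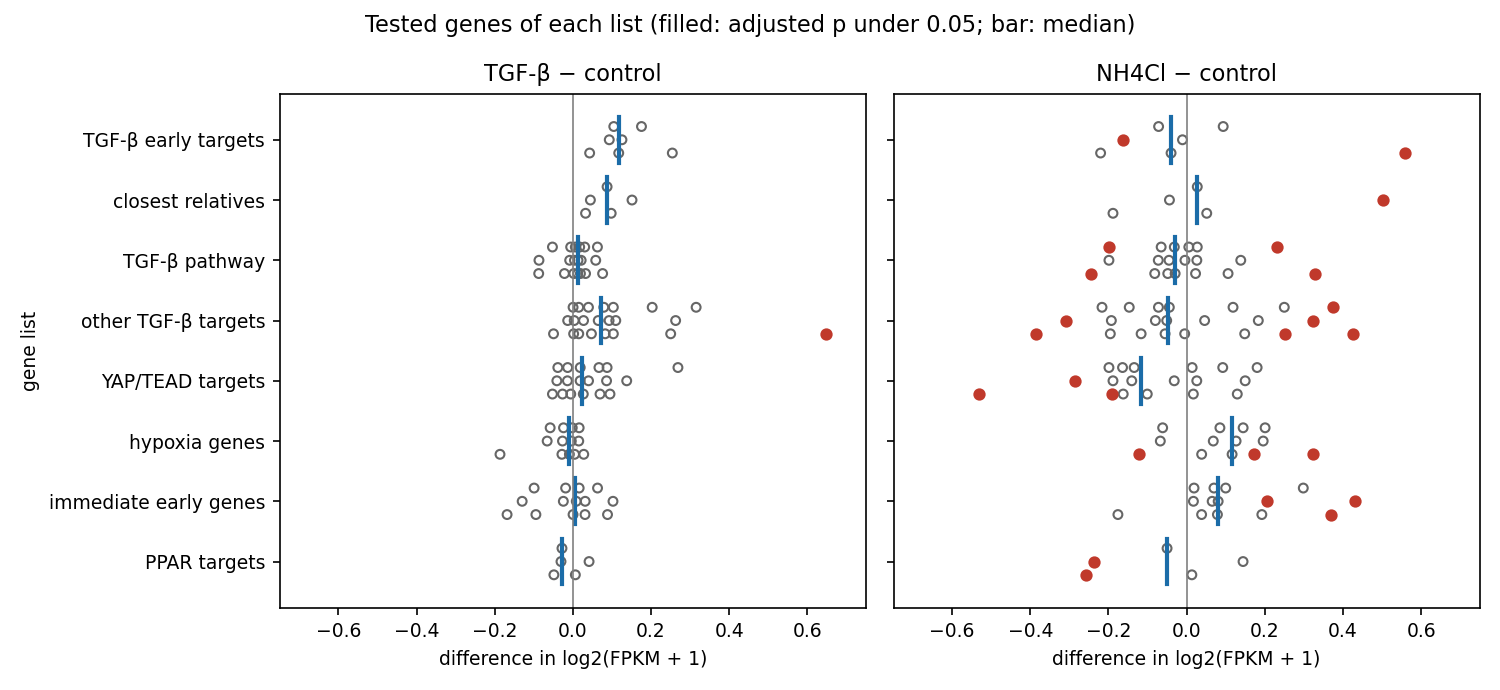
Difference in log2(FPKM + 1) of every tested gene of 8 lists, with TGF-β against control on the left and with NH4Cl against control on the right. Each point is 1 gene, filled where the adjusted p was under 0.05, and the blue bar is the median of the list. On the left ID1 is the filled point and the early targets all lie above 0, and on the right filled points lie on both sides of 0.

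After subtracting the mean of each replicate number, the 7 tested genes did not share 1 pattern over the 12 libraries. As a description with 12 libraries that share treatments, and with no test, Pearson's r of SMAD7 was 0.921 with PMEPA1, 0.771 with KLF10 and −0.279 with BHLHE40. TGIF1 and KLF10 had r = 0.845, and BHLHE40 and TGIF1 had r = −0.766. Over all genes tested, the pattern nearest to SMAD7 was that of ID1 (r = 0.925), then PIP5K1C (0.923), and nearest to PMEPA1 were GHDC (0.963) and SMAD7 itself. Nearest to BHLHE40 were SOX8 (0.99) and SLC29A4 (0.989), and nearest to TGIF1 were PPDPF (0.975) and QARS (0.972). For KLF10 they were TUBBP1 (0.942) and CX3CL1 (0.933), for SKIL PIM1 (0.928) and PLEKHG4 (0.891), and for CTGF SERP2 (0.915) and RAB3GAP1 (0.895).

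The libraries were checked against markers of cell types. Of 11 colon epithelial markers 10 reached a mean of 1 FPKM, led by KRT18 at 876 FPKM, and their summed level was 2600, 2490 and 3420 FPKM in control libraries, 2580, 2500 and 3520 with TGF-β, 2360, 2390 and 3000 with NH4Cl, and 2580, 2450 and 3130 with both. Replicate 3 was the highest in each group, as it was for SMAD7, PMEPA1, TGIF1 and BHLHE40. With TGF-β, limma and limma-voom called 0 epithelial markers in either setting, with 0 and 1 at an unadjusted p under 0.05. With NH4Cl VIL1 rose and KRT19 fell, and in TGF-β-treated cells EPCAM rose and KRT19 and CDH1 fell, and these calls were lost without the block. Of 7 fibroblast markers 2 were tested. Over the 12 libraries limma and limma-voom called 0 in any of the comparisons, with 1 at an unadjusted p under 0.05 in each NH4Cl comparison. From replicates 1 and 2 alone limma called 1 of the 2 with NH4Cl and 0 with NH4Cl in TGF-β-treated cells. COL1A2, COL3A1, DCN and PDGFRA had means under 0.1 FPKM, LUM was the most abundant at 7.79 FPKM, and the sums were 8.04, 8.48 and 10.61 FPKM in control libraries, 8.785, 8.50 and 9.65 with TGF-β, 10.05, 10.11 and 11.06 with NH4Cl and 10.14, 9.53 and 11.19 with both, higher with NH4Cl in each same-numbered pair. Of 6 immune markers PTPRC and CD68 were not in the table, LYZ led at 1.12 FPKM and was the only marker tested, without passing, and the sums were 0.833 to 2.32 FPKM. Of 4 endothelial markers PECAM1 and KDR were under 0.1 FPKM. The endothelial sum, nearly all VWF (mean 3.01 FPKM), was 1.74, 1.95 and 4.17 FPKM in control libraries, 1.93, 1.58 and 4.38 with TGF-β, 2.71, 3.00 and 5.85 with NH4Cl and 2.67, 2.82 and 6.84 with both. VWF rose with NH4Cl by 0.46 and by 0.52 in TGF-β-treated cells, calls lost without the block. Whether these markers have a part in the BHLHE40 result was not tested.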

How the data were processed

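Groups and replicate numbers come from the labels, and doses and times from the paper's methods. The authors deposited FPKM for 25733 genes. The paper names HTSeq for counting and a PureLink kit, while the submitters' processing notes name Trimmomatic 0.36, STAR 2.5.2b and featureCounts of Subread 1.5.2 on GRCh38, and the labels another kit. The table's values were taken as they stand, as log2(FPKM + 1). All gene identifiers were found in GENCODE 29, whose coordinates and exon lengths were used.

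Genes with a mean of at least 1 FPKM, 12341 in all, went into a limma 3.58.1 model of the 4 groups with replicate number as a block (R 4.3.3; two-sided moderated statistics, prior variance following intensity), and p was adjusted by Benjamini-Hochberg over all of them with a threshold of 0.05. The pairing by replicate number follows the labels, and the block was put in the main fit with an earlier look at these data known. Deviations from group means correlated between libraries of different groups with r from 0.702 to 0.774 for replicate 3 with 3, and from −0.655 to −0.464 for replicate 3 with 1 or 2. Replicate 1 with 1 gave 0.349 to 0.431, 2 with 2 gave 0.446 to 0.533 and 1 with 2 gave 0.341 to 0.486, so the data set replicate 3 apart and do not tell 1 from 2. The meaning of a replicate number is stated nowhere. FPKM times exon length gave whole reads within 0.1 for 100.0% of values. Other steps used Python 3.11.15, numpy 2.4.6, pandas 2.3.3 and matplotlib 3.10.9.

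The 8 genes and the lists (closest relatives, TGF-β pathway, other TGF-β targets, YAP and TEAD targets, hypoxia genes, PPAR targets, immediate early genes, and markers of colon epithelium, fibroblasts, immune cells and endothelium) were chosen with earlier results of these data known. Genes named in a list were taken from those past the threshold where 5 or fewer were, and otherwise from the 3 with the largest differences, and not every such gene is named. The signal genes TGFBR1, TGFBR2, SMAD2, SMAD3, SMAD4 and SPTBN1 were named in any case, as were the 2 genes most like each tested gene by Pearson's r. The alternatives are a fit with no block, a pseudocount of 0.1, no filter, a mean FPKM of at least 5, libraries scaled to the same sum or centred on their median, only the groups compared, no intensity trend, and leaving out each library. Further alternatives, chosen after seeing the data, were limma-voom on recovered reads, also without the filter for ANGPTL4, replicates 1 and 2 only, and a block for replicate 3 only.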

Additional observations from a re-analysis of the deposited data

How the results depend on the processing

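Of 793 values of the 7 tested genes under the alternatives, 721 kept their sign and their side of the threshold, 44 lost a call, 7 gained one and 21 changed sign, and 28 of 35 differences kept 1 sign in all alternatives run. BHLHE40 passed with NH4Cl in 22 of 23 alternatives in each setting and was lost without the block only. SMAD7 with TGF-β kept its sign in all 23, at 0.21 to 0.29 without NH4Cl and 0.15 to 0.19 with it, and never passed. Of those with a changed sign, none of which passed, median centring gave SKIL 0.00337 for the interaction. Replicates 1 and 2 alone gave 0.0572 (KLF10), −0.00866 (TGIF1) and −0.0453 (BHLHE40) for the interaction and 0.114 for CTGF with NH4Cl. Leaving out 1 library moved the interaction over −0.0601 to 0.0664 for SKIL, −0.0895 to 0.062 for KLF10, −0.0133 to 0.0419 for TGIF1 and −0.0235 to 0.0972 for BHLHE40, the NH4Cl difference over −0.0349 to 0.0176 for PMEPA1 and −0.156 to 0.114 for CTGF, and the TGF-β difference of CTGF over −0.0522 to 0.247, below 0 without TGF-β replicate 1. With no block, the genes past the threshold numbered 0 with TGF-β, 0 with TGF-β in NH4Cl, 47 with NH4Cl and 127 with NH4Cl in TGF-β-treated cells, and the early targets 0 in each. With TGF-β the 1 gene became 0 with no filter, only the groups compared, no trend or a block for replicate 3 only, and 2 at a mean FPKM of at least 5 or with voom. In NH4Cl it became 0 with no filter, the same sum, only the groups compared, no trend, replicates 1 and 2 or a block for replicate 3 only, and 2 with voom. For the interaction voom and replicates 1 and 2 each gave 1. Only the groups compared gave 1125 genes with NH4Cl in TGF-β-treated cells and left 1 early target with NH4Cl and 2 in TGF-β-treated cells. There, no filter left 1, the same sum 2, and replicates 1 and 2 left 2. From replicates 1 and 2 alone 1147 of the 12341 genes tested passed with NH4Cl and 1653 in TGF-β-treated cells. Leaving out 1 library gave 0 to 2 genes with TGF-β, 0 to 1 in NH4Cl, 0 to 1 for the interaction, 705 to 1786 with NH4Cl (lowest without NH4Cl replicate 2) and 1249 to 2365 in TGF-β-treated cells (lowest without TGF-β replicate 2). Early targets past the threshold were 1 to 2 with NH4Cl, 1 without control replicate 1 or 2 or NH4Cl replicate 1 or 2, and 1 to 4 in TGF-β-treated cells, 1 without replicate 1 or 2 of TGF-β or of both agents and 2 without control replicate 1 or replicate 3 of TGF-β or of both agents. TGIF1 lost its call with NH4Cl without any 1 of the 6 control and NH4Cl libraries, with an adjusted p of 0.063 to 0.115. KLF10 gained one there in 7 of 23 alternatives: at a mean FPKM of at least 5 (adjusted p = 0.0305), with median centring (0.0375), voom (0.00995), replicates 1 and 2 alone (0.0147) or a block for replicate 3 only (0.0384), and without control replicate 3 (adjusted p = 0.0418) or NH4Cl replicate 3 (0.00658). In TGF-β-treated cells SMAD7 kept its call in 5, TGIF1 in 3 and KLF10 in 7 of 12 such fits, that of KLF10 being lost without replicate 1 or 2 of TGF-β (adjusted p = 0.0914 and 0.0975) or any library with both agents (0.0553 to 0.0964). CTGF has no value at a mean FPKM of at least 5. The cause was not tested. The interval of the SMAD7 interaction holds both an unchanged and a much smaller response.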
